A study of Mus musculus with 2 samples.

Results

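The Notch receptor genes Notch1, Notch2 and Notch3, the ligand genes Jag1 and Dll1, and the target genes Hes1, Hey1, Hey2, Heyl and Nrarp were followed in the ureter of mouse embryos. They were found as all non-control probes that carry one of these names, which gave 12 probes for 10 genes out of 31870 named genes on the array. Ureters were dissected at embryonic stage E14.5 from mice of the NMRI background. Gata2cKO embryos had the genotype Tbx18(cre/+);Gata2(fl/fl), in which Cre recombinase made from 1 allele of Tbx18 acts in the mesenchyme around the ureter on 2 loxP-flanked alleles of the transcription factor gene Gata2. Control embryos had the genotype Tbx18(+/+);Gata2(fl/?), so they carried no Cre, a floxed allele too, and an allele that the label does not define. Array 1 compared a female Gata2cKO RNA, in Alexa Fluor 647, with a female control RNA in Alexa Fluor 555, and array 2 a male pair with the dyes exchanged. Sex and dye orientation therefore cannot be told apart, and neither can the loss of Gata2 and the loss of 1 Tbx18 allele or the presence of Cre. The labels do not state how many embryos an RNA came from, so p-values measure only the spread between these 2 arrays.

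In Notch signalling a ligand of the Jagged or Delta-like type on one cell binds a Notch receptor on its neighbour, and the receptor is cut so that its intracellular part enters the nucleus. There it joins the DNA-binding protein RBPJ and switches on genes such as Hes1 and the Hey genes, which encode basic helix-loop-helix repressors, and Nrarp, which encodes a feedback inhibitor of the receptor's intracellular part. In blood vessels the pathway is known for its roles in the endothelium and in the smooth muscle that surrounds it.

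Of the 7 genes that could be searched, Hey2 alone had a match near its start to the letters TGGGAA, a core motif of RBPJ. Its sequence is shown for that reason. The letters TGGGAA were searched on both strands, so that TTCCCA counts as well, in windows from 250 bases before to 50 bases after each start in the RefSeq table (build GRCm38.p6). A window was held for 7 of the 10 genes, 8 windows in all because Dll1 has a pair of them. Those of Notch1, Notch2, Notch3, Jag1, Dll1 and Nrarp, 7 of the 8, had no match to these letters. Of other forms of the motif only the longer GTGGGAA was searched. Hes1, Hey1 and Heyl were not among the windows. Of 32851 windows of all genes, 25.6% held at least 1 match and 3.79% held 2 or more, and with the longer form GTGGGAA these shares were 6.38% and 0.256%. The Hey2 window held 2 matches, both also to the longer form, at positions -207 to -202 and -3 to 3 counted from the start with no position 0. The 250 bases before the start lie on the minus strand at chr10:30842784-30843033, and the second stretch, across the start, at chr10:30842774-30842797. Both are written 5′ to 3′ with the matches in capitals, and the first ends within the second match.
Hey2 upstream: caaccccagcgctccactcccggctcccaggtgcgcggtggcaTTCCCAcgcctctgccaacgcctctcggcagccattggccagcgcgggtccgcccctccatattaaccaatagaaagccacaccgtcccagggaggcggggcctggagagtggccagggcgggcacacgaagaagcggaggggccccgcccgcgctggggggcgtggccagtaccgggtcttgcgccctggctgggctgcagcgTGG
Hey2 start: gggctgcagcgTGGGAAagaacct
These matches are a description of the letters, and binding of RBPJ was not measured. A link between the matches and the ratio of Hey2 was not tested.

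All 10 genes were measured. Of the 12 probes, 11 were well above background in all 4 RNAs, and the remaining one, the dimmer Notch2 probe, in 3 of the 4 (1 control RNA missing). No spot was saturated. The median signal of non-control spots was 433.1 and 428.1 in the 555 channel of arrays 1 and 2, and 753.6 and 754 in the 647 channel. Levels below are log2 intensities after normalization within and between arrays, and they are compared only within a probe. Ratios are log2 of Gata2cKO over control, averaged over the 2 arrays and tested with limma over 20507 genes, each gene standing by its brightest probe. No probe of the 10 genes lay in the brightest 25% of genes, in which the ratios of the arrays correlated at r = -0.572 across genes. Outside that group the correlation across genes was 0.389. The probe of Gata2 gave a log2 ratio of 0.44, above 0, in the RNA that should lack it (0.33 on array 1 and 0.54 on array 2). This probe was far brighter than those of the 10 genes (log2 brightness 15.65, against 13.53 for Notch3, the brightest of them). The labels do not place the Gata2 probe inside or outside the deleted part. All directions therefore rest on the dyes named in the labels.

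None of the 10 genes passed an adjusted p of 0.05 by limma, against 0.0878% of all genes (18 of 20507). At an unadjusted p under 0.05 there were 2, Hes1 and Hey2, where all genes gave 7.17%. Their ratios had opposite signs, Hey2 above 0 and Hes1 below it. This pair changed under 3 other settings by limma. With the scanner software's processed signals it was Hey2 and Notch1, where 2285 of all 20507 genes were under 0.05. Median centring left Hey2 alone (492 of all genes), and the authors' deposited table left none of the 10 (972 of all genes). In whole ureters fewer cells of a type cannot be told apart from less RNA per cell, here and below. The ratio had 1 sign on both arrays for 6 of the 10, where all genes gave 53.2%, and it was above 0 on both for 3 of the 10 (Notch1, Notch2 and Hey2), where all genes gave 27%. In 5 of the 10 (Notch2, Dll1, Hes1, Hey2 and Nrarp) the levels of both Gata2cKO RNAs lay on one side of both control RNAs, where all genes gave 38.5%. No member reached 1.5-fold on average, against 1.42% of all genes. The median ratio of the 10 was 0.0622, with -0.0921 on array 1 and 0.0972 on array 2, so its sign differed between the arrays, and the median of all genes was 0.00284.

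**Figure D1:**
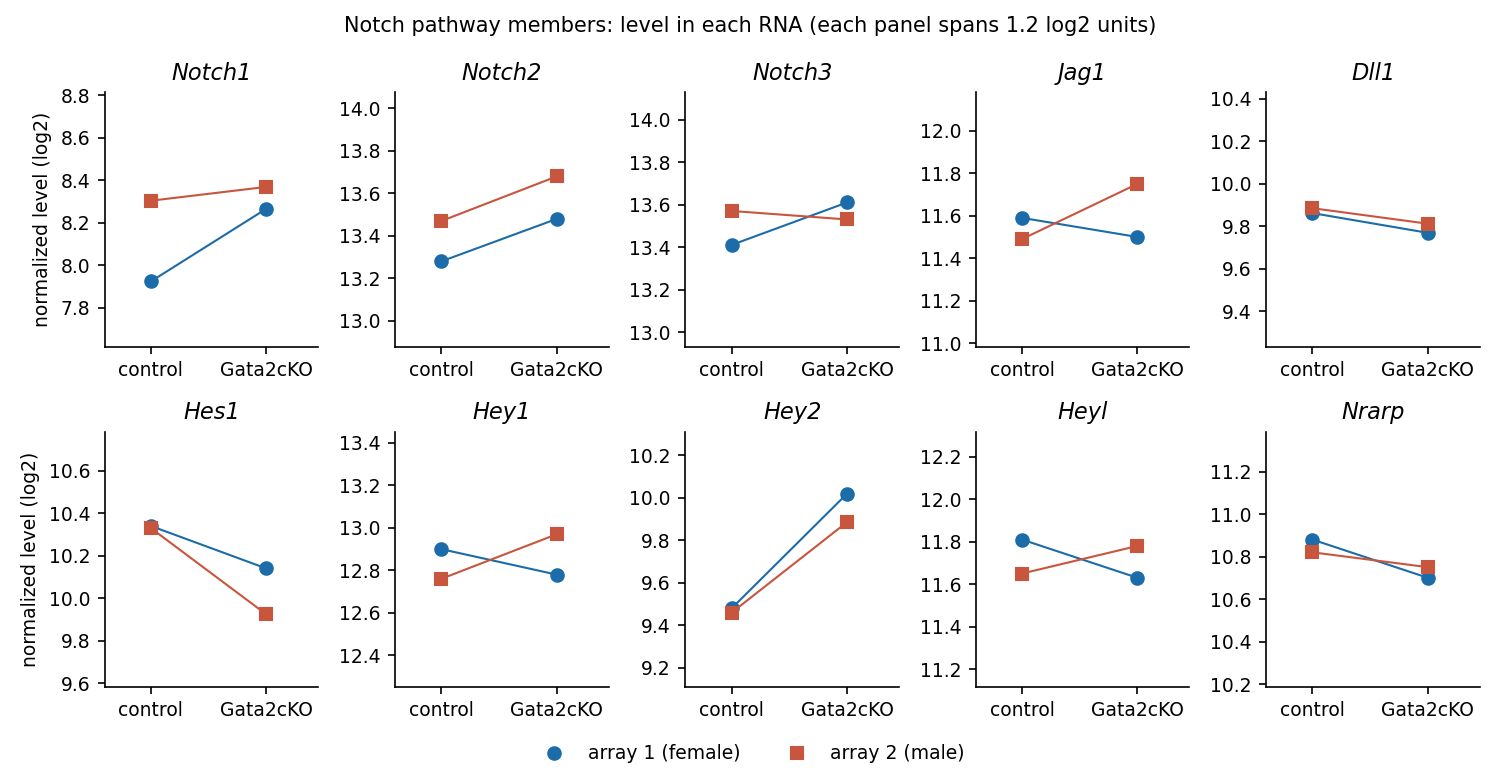
Normalized level (log2 intensity) of each gene's brightest probe in the control and Gata2cKO RNA of array 1 (circles, female) and array 2 (squares, male); lines join the RNAs of 1 array and each panel spans the same height. Hey2 is the steepest upward pair and Hes1 the steepest downward pair, while the 2 lines of Notch3, Jag1, Hey1 and Heyl slope in opposite directions.

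Among the target genes, Hey2 encodes a Hey repressor best known from the heart and arteries. Its level was 9.48 in the female control and 10.02 in the female Gata2cKO RNA, and 9.46 in the male control and 9.89 in the male Gata2cKO RNA. Both Gata2cKO RNAs lay above both controls, and the controls were nearly level with each other. Array 1 gave a ratio of 0.54 and array 2 one of 0.43, with a mean of 0.48 ± 0.0814 (SD, n = 2; adjusted p = 0.308), or 1.40-fold with a 95% interval of 1.16 to 1.68. Only 0.995% of the genes tested had a higher ratio. With a trended and robust variance, where 375 genes passed, Hey2 passed as well (adjusted p = 0.0433). Across the 9 alternatives its adjusted p ran from 0.0433 to 1. Only no background subtraction, the processed signals, median centring and the deposited table could move the ratio of its single probe. Under these the mean ratio ran from 0.146 to 0.614, above 0 in each. The lowest mean came from the authors' deposited table, whose columns gave Hey2 at 0.48 for array 1 and -0.19 for array 2. Before normalization the mean spot intensity on array 1 was 532.2 for the control RNA against 1353 for Gata2cKO, and on array 2, where the control RNA was in the brighter 647 channel, 912.8 against 698.8. Its single probe lies on chromosome 10 from 30552729 to 30552788 (mm9, minus strand).

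Hes1, the founding mammalian repressor among Notch targets, had ratios of the opposite sign. Its level was 10.34 and 10.14 in the female control and Gata2cKO RNAs, and 10.33 and 9.92 in the male ones. Both Gata2cKO RNAs lay below both controls. The ratios were -0.21 and -0.41, with a mean of -0.31 ± 0.142 (SD, n = 2; adjusted p = 0.652), or 0.809-fold with a 95% interval of 0.666 to 0.982. Under the settings that could move the ratio of its single probe, as named for Hey2, the mean was below 0, from -0.372 to -0.272. Across the 9 alternatives the adjusted p ran from 0.324 to 1. In the authors' deposited table the column for array 1 was at 0.11 and that for array 2 at -0.85, so the negative mean there came from array 2. The Hes1 probe lies on chromosome 16 from 30067820 to 30067879 (mm9, plus strand).

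Nrarp was lower on both arrays by less. Its level was 10.88 and 10.70 in the female control and Gata2cKO RNAs and 10.82 and 10.75 in the male ones, with a mean ratio of -0.12 ± 0.0796 (SD, n = 2; adjusted p = 0.892). The 95% interval, 0.763-fold to 1.10-fold, contains no change. In the scanner software's processed signals array 2 had the opposite sign (-0.15 on array 1 and 0.02 on array 2). The probe lies on chromosome 2 from 25038038 to 25038097 (mm9, plus strand).

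Hey1 and Heyl, the other Hey repressor genes, had opposite signs on the arrays. Hey1 was at 12.90 and 12.78 in the female control and Gata2cKO RNAs and at 12.76 and 12.97 in the male ones. Its ratios of -0.12 and 0.21 gave a mean of 0.04 ± 0.232 (SD, n = 2; adjusted p = 0.990) and an interval of 0.830-fold to 1.28-fold. Heyl was at 11.81 and 11.63 in the female pair and at 11.65 and 11.78 in the male pair, with a mean ratio of -0.02 ± 0.212 (SD, n = 2; adjusted p = 0.994) and an interval of 0.799-fold to 1.22-fold. Since the dyes were exchanged, opposite signs by themselves mean that the same dye had the higher normalized level on both arrays. For Hey1 and Heyl that dye was 555, as for Jag1, and for Notch3 it was the other dye. Before normalization the RNA labelled with 555 was the dimmer one on each array for Hey1 and Heyl. An effect of dye was not tested. The sign of both means turned in the authors' deposited table (-0.107 for Hey1 and 0.0957 for Heyl), and that of Heyl also with the scanner software's processed signals (0.0353). The Hey1 probe lies on chromosome 3 from 8663432 to 8663491 (minus strand) and the Heyl probe on chromosome 4 from 122926975 to 122927034 (plus strand), both in mm9.

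**Figure D2:**
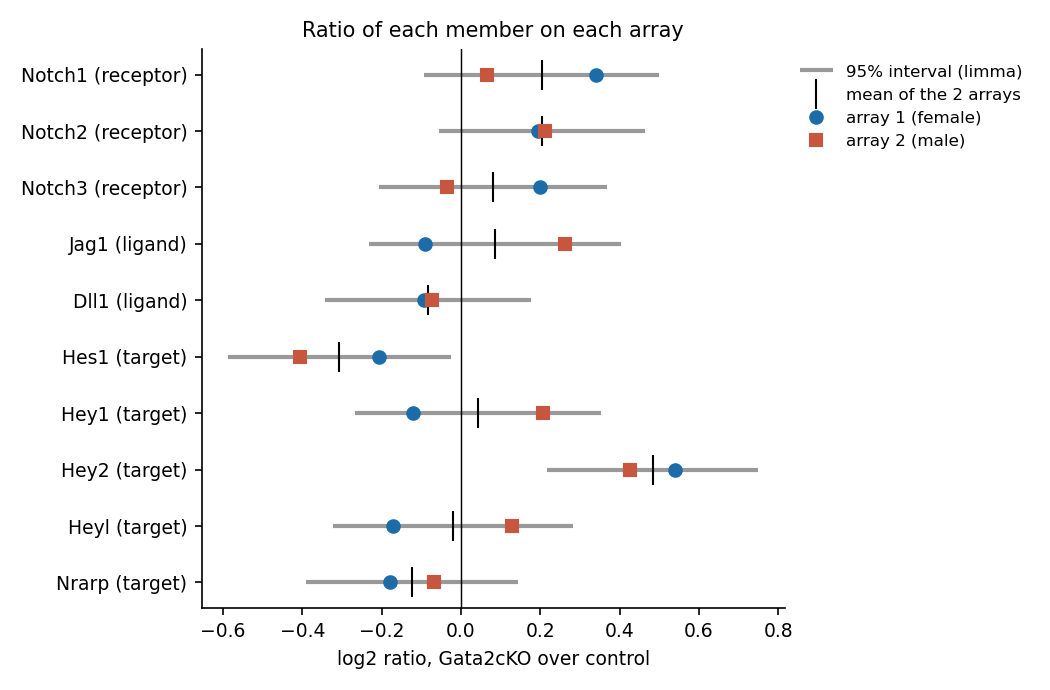
Log2 ratio of Gata2cKO over control for each member on array 1 (circles) and array 2 (squares), with the mean (tick) and the 95% interval from limma (grey bar). The intervals of Hey2 and Hes1 alone do not cross 0, and neither gene passes after adjustment over all genes.

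Of the receptor genes, Notch2 gave nearly the same ratio on both arrays. The brighter of its probes was at 13.28 in the female control and 13.48 in the female Gata2cKO RNA, and at 13.47 and 13.68 in the male pair. The ranges of the groups were therefore almost touching, although each Gata2cKO RNA was above its own control. Ratios of 0.20 and 0.21 gave a mean of 0.20 ± 0.0123 (SD, n = 2; adjusted p = 0.767), or 1.15-fold with a 95% interval of 0.962 to 1.38. The small SD does not narrow the interval much, since limma draws each gene's spread towards a prior SD of 0.163. The dimmer Notch2 probe had a mean of 0.10 (0.12 on array 1 and 0.08 on array 2), the same direction at a lower level. The columns of the authors' deposited table gave the brighter probe 0.64 and -0.12. The brighter probe lies on chromosome 3 from 97953914 to 97953973 and the dimmer one from 97951233 to 97951292 (mm9, plus strand).

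Notch1, a receptor gene with prominent roles in endothelium, was read by a pair of dim probes that both had positive ratios on both arrays but differed in which array gave the larger one. The brighter probe was at 7.92 and 8.27 in the female control and Gata2cKO RNAs and at 8.30 and 8.37 in the male ones, with ratios of 0.34 and 0.07. The mean was 0.20 ± 0.195 (SD, n = 2; adjusted p = 0.799) with an interval of 0.937-fold to 1.41-fold. The ratios of the other probe were 0.05 and 0.48, with a mean of 0.26 ± 0.307 (SD, n = 2). The levels of the female Gata2cKO RNA and the male control RNA overlap in the brighter probe. The mean of the brighter Notch1 probe moved with the signal used. It was 0.453 with the scanner software's processed signals (adjusted p = 0.362 by limma) and 0.067 in the authors' deposited table. There the columns gave this probe 0.26 for array 1 and -0.13 for array 2. The other probe was at 0.86 and 0.002 in that table, with a mean of 0.43. The probes lie on chromosome 2 from 26314630 to 26314689 and from 26319440 to 26319499 (mm9, minus strand).

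Notch3, the receptor gene typical of vascular smooth muscle and pericytes, had ratios of opposite sign with a mean close to 0. It was at 13.41 and 13.61 in the female control and Gata2cKO RNAs and at 13.57 and 13.53 in the male ones. The mean of its ratios, 0.20 and -0.04, was 0.08 ± 0.165 (SD, n = 2; adjusted p = 0.955), and its interval ran from 0.867-fold to 1.29-fold. Folds of 2 up or down lie outside the 95% interval of Notch3, and outside that of each of the other members. The probe lies on chromosome 17 from 32257848 to 32257907 (mm9, minus strand).

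The mean ratios of the ligand genes were also close to 0. Jag1, a ligand gene used by vascular smooth muscle and epithelia, was at 11.59 and 11.50 in the female control and Gata2cKO RNAs and at 11.49 and 11.75 in the male ones. Its ratios of -0.09 and 0.26 had a mean of 0.09 ± 0.250 (SD, n = 2; adjusted p = 0.959), the widest spread of the 10 genes, with an interval of 0.851-fold to 1.32-fold. Dll1, a Delta-like ligand gene, was at 9.86 and 9.77 in the female pair and at 9.89 and 9.81 in the male pair. Its mean ratio was -0.08 ± 0.0147 (SD, n = 2; adjusted p = 0.950) with an interval of 0.788-fold to 1.13-fold, and it turned to 0.100 in the authors' deposited table. The Jag1 probe lies on chromosome 2 from 136907433 to 136907492 and the Dll1 probe on chromosome 17 from 15504623 to 15504682 (mm9, minus strand).

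Dll1 alone was printed many times on the array and shows how repeatable a spot is. Its 10 spots gave ratios from -0.17 to -0.04 on array 1 (SD 0.0441 between spots) and from -0.15 to 0.00 on array 2 (SD 0.0553). The spread between spots of this probe was below the prior SD between arrays of 0.163, which is drawn from all genes. It was above the SD between the 2 array means of Dll1 itself, 0.0147. That SD is of means over 10 spots and not of single spots, so these are unlike measures. The spot spread covers the printing and scanning of 1 RNA pair and not the difference between embryos.

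**Figure D3:**
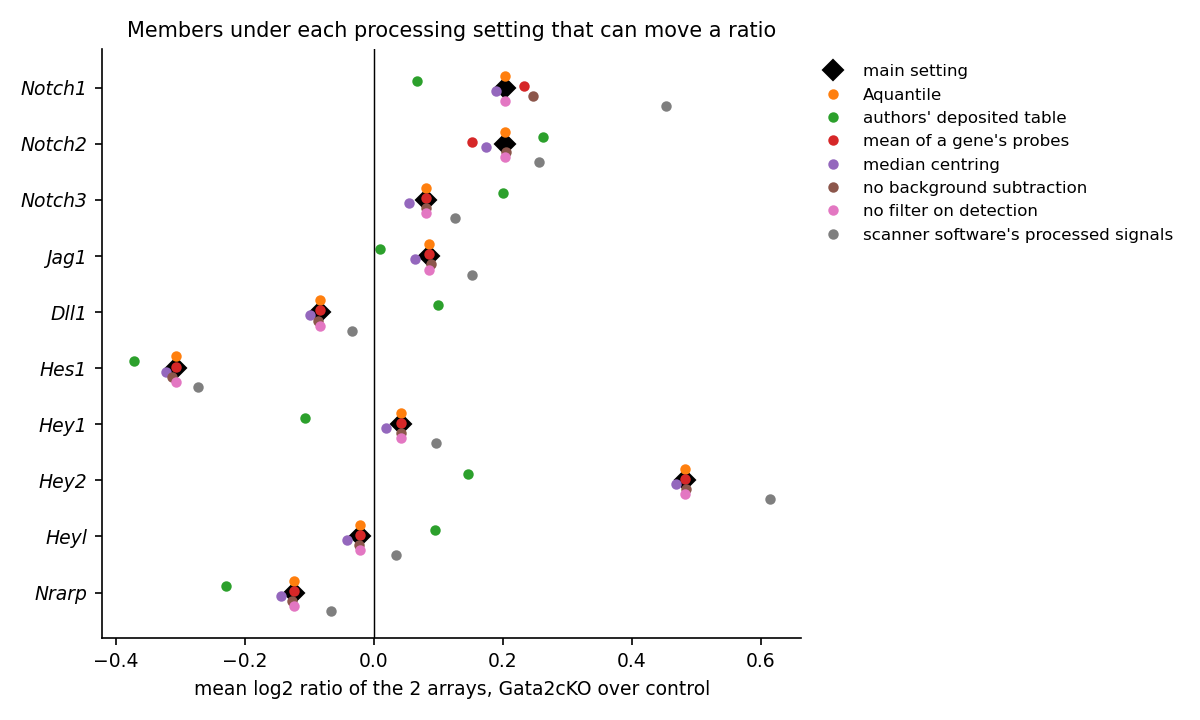
Mean log2 ratio of each member in the main setting (diamonds) and under 7 other settings (dots). Aquantile and no filter on detection left every member at its main value. Averaging probes moved only Notch1 and Notch2, the genes with 2 probes. Hey2 stays right of 0 and Hes1 left of 0 in all of them, and the authors' deposited table and the scanner software's processed signals lie farthest from the main values for each member.

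The other genes of the pathway were taken from a list of 62, of which 60 were tested (Ncstn and Hes3 were not). None passed an adjusted p of 0.05 in either direction. At an unadjusted p under 0.05 there were 2, both with negative ratios, Dlk1 and Hes6, where all genes gave 7.17%. These 2 are named after their values were seen. On both arrays 16 of the 60 were higher and 20 lower, and 24 had opposite signs, where of all 20507 genes 5535 were higher, 5370 lower and 9602 of opposite sign. The median ratio was -0.0267, with -0.0200 on array 1 and -0.0213 on array 2, and it was above 0 with processed signals (0.0231) and, at 0.0399, in the authors' deposited table. Dlk1, which encodes a Delta-like protein that lacks the Delta signature domain, had a mean ratio of -0.49 ± 0.205 (SD, n = 2; adjusted p = 0.367), and its other probe -0.62. Hes6, an atypical member of the Hes family, was at -0.29 ± 0.106 (SD, n = 2; adjusted p = 0.669).

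The remaining receptor gene and the other ligand genes chosen by role were near 0. Notch4, an endothelial receptor gene, had a mean ratio of -0.09, Dll4, the arterial Delta-like ligand gene, -0.06, and Jag2 -0.09. In the authors' deposited table Notch4 and Dll4 had the opposite sign (0.167 and 0.146). The gene of the DNA-binding partner RBPJ was at 0.08, with -0.14 on array 1 and 0.30 on array 2, and its dimmer probe at -0.15. The fringe glycosyltransferases add sugars to Notch receptors. Lfng was at -0.05, or 0.179 in the authors' deposited table, and Mfng at -0.06, with its other probe at -0.14. Adjusted p-values of these 6 genes by limma were all at or above 0.944 (Notch4) and reached 0.978 (Lfng).

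Marker genes of several cell types lay farther from 0 than the 10 genes did. Of 66 markers in 9 lists 65 were tested, all but Lmod1. The counts of markers higher or lower on both arrays stand beside the same counts over all genes as above, 5535 higher and 5370 lower of 20507. Smooth muscle markers had a median of -0.77, with 8 of 8 tested lower on both arrays, and their summed intensity was 76560 to 80890 in the controls and 55090 to 58310 in the Gata2cKO RNAs. Neuron and glia markers had a median of -0.756 (9 of 10 lower on both; summed intensity 23800 to 29860 against 15320 to 15940), and 1 of them, Prph, passed an adjusted p of 0.05. Macrophage markers were at -0.348 (6 of 6 lower) and skeletal muscle markers at -0.791 (5 of 5 lower). Endothelial markers were at -0.0508 (4 of 9 lower and 1 higher on both; summed intensity 88990 to 94400 against 86240 to 89870) and pericyte markers at 0.0667 (3 of 5 higher and 1 lower). Urothelial markers were at 0.194 (6 of 10 higher) and nephron markers at 0.211 (3 of 5 higher). Ureteric mesenchyme markers were at 0.153, with 4 of 7 higher, Gata2 among them, and 1 lower, Sox9 (mean ratio -0.42). In the authors' deposited table the medians of 3 lists had the opposite sign, -0.362 for urothelium (8 of 10 below 0), -0.147 for nephron (5 of 5 below 0) and 0.157 for endothelium (7 of 9 above 0). The endothelial median was also above 0 with the processed signals (0.00809). The part of these shifts in the ratios of Hey2, Hes1 or any other member was not tested.

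**Figure D4:**
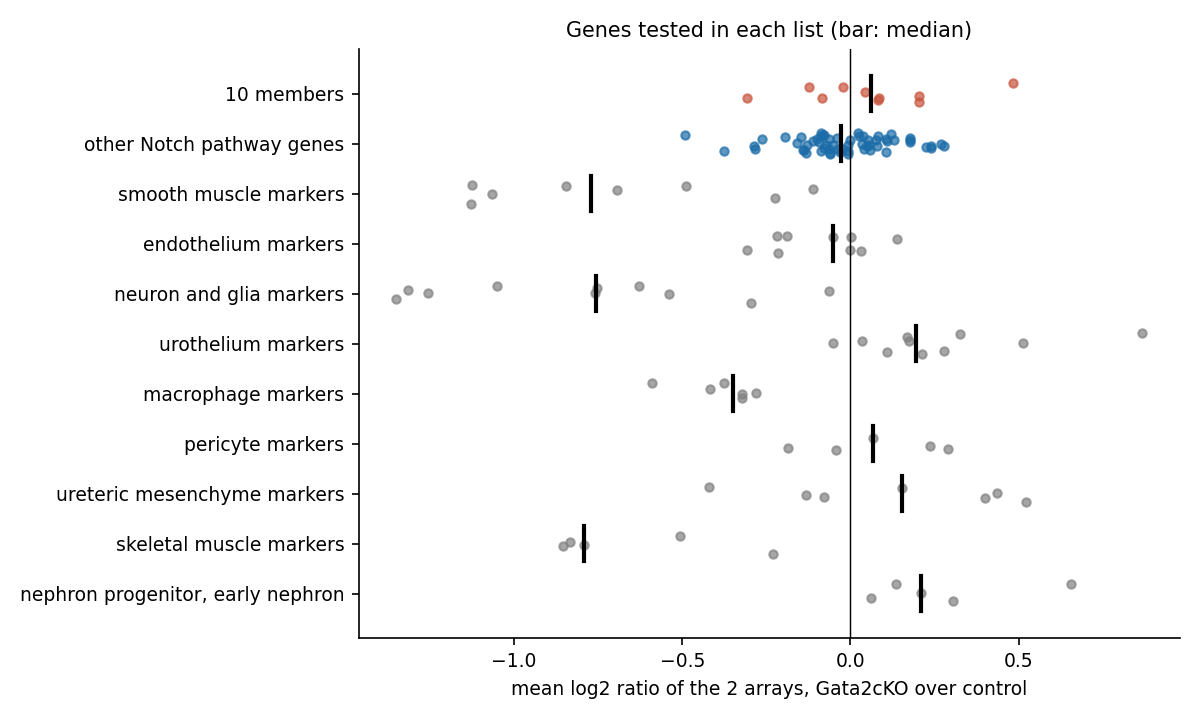
Mean log2 ratio of every gene tested among the 10 members, the other 60 Notch pathway genes and 9 lists of cell type markers, with the median as a bar. The members lie between -0.31 and 0.48, while smooth muscle, skeletal muscle and neuron and glia markers reach below -0.8.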

How the data were processed

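The data are 2 arrays with 2 colours, each of 1 Gata2cKO and 1 control RNA. Per the file headers, spots were read with Agilent Feature Extraction 10.7.3.1, and probes were placed on mm9. From the deposited scanner files, the linear intensity of spots and their local background was used, without normalization by the authors, and, as an alternative, the software's processed signals, which are corrected for background, trend across the slide and dye. The files also hold a log10 ratio per the file headers, which was not used. In the authors' deposited table each value is a score, a signed fold with no value between -1 and 1 and a median of 1 in both columns. The sources used here do not give its making or centring. The direction of each column was taken from its correlation with the scanner ratios (0.442 and 0.376). Both correlations were positive as deposited, so neither column was turned. By this rule a correlation over all genes could not come out negative. The deposited table was an alternative only, as signed log2.

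Intensity was background-corrected by normexp (offset 50), normalized within arrays by loess (span 0.3, controls and outlier spots at weight 0), and turned to Gata2cKO over control. Spots of a probe were averaged. Probes well above background on both arrays in at least 1 group were kept (25658), the brightest per gene. Levels were also scaled by Aquantile. Accessions were matched to RefSeq names (26412 of 39429 probes). Ratios were tested with lmFit and eBayes of limma 3.58.1 under R 4.3.3. The tests were two-sided, and p-values were adjusted over all genes by Benjamini-Hochberg. There was 1 residual degree of freedom, with a prior of 4.68. No dye term could be fitted. The functions were tested on simulated arrays.

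Members, lists and tests were chosen with earlier results of these data known. All members are named, then 6 pathway genes chosen by role (Notch4, Dll4, Jag2, Rbpj, Lfng and Mfng). Any past the threshold, or at least 1.5-fold with 1 sign on both arrays, were to be named too, and there were none. Markers are given by list. Probe sequences are not shown.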

Additional observations from a re-analysis of the deposited data

Results flagged for a closer look

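Several genes had opposite signs on the arrays, each of which holds 1 sex and 1 dye orientation. The difference between the arrays was not tested, and sex and dye cannot be told apart. Among the 10 genes these were Notch3 (log2 ratio 0.198 on array 1 and -0.0354 on array 2), Jag1 (-0.0909 and 0.263), Hey1 (-0.121 and 0.207) and Heyl (-0.171 and 0.129). Among the other pathway genes named here they were Rbpj (-0.141 and 0.301), Mfng (-0.235 and 0.107) and Hes5 (-1.49 and 0.744). Opposite signs were common, since 53.2% of all genes had 1 sign on both arrays.

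Hes5, a Hes repressor gene of neural progenitors, had the widest gap between the arrays of the 60 pathway genes tested and was named after its values were seen. Its level was 8.89 and 7.40 in the female control and Gata2cKO RNAs and 7.86 and 8.60 in the male ones, and its mean ratio was -0.37 ± 1.58 (SD, n = 2; adjusted p = 0.950). Its probe was well above background in both controls and in 1 of the 2 Gata2cKO RNAs.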

How the results depend on the processing

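Across the 9 alternatives 0 of the 10 genes passed an adjusted p of 0.05, except that 1 (Hey2) did with a trended and robust variance. None of the 60 other pathway genes passed under any of them. The number of the 10 with 1 sign on both arrays was 5 to 7, and their median ratio 0.037 to 0.112, or -0.0921 and 0.0972 with 1 array left out. Counts of calls could not be had from 1 array. The mean changed sign in the authors' deposited table for Dll1 (0.100), Hey1 (-0.107), Heyl (0.0957), Notch4 (0.167), Dll4 (0.146), Lfng (0.179) and Rbpj (-0.00525). It also did so with the scanner software's processed signals for Heyl (0.0353) and Lfng (0.0127), and for Rbpj when its probes were averaged (-0.0352). The cause was not tested. Medians of the gene lists under these settings were added after the data were seen. The processed signals moved the median of all genes to 0.0584, and 120 genes passed with them, against 18 here. Other settings that moved this count by over 1.5 times were the trended and robust variance (375), no filter on detection (54), no background subtraction (3), median centring (0 by limma, 492 at an unadjusted p under 0.05) and the deposited table (0 by limma, 972 at an unadjusted p under 0.05). No paired analysis was possible because each array already is a pair and there is 1 group of ratios. The number of arrays limits the precision.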
